A study of Mus musculus with 6 samples.

Results

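Collagen IV is the network-forming collagen of basement membranes, the thin sheets of matrix that underlie epithelia and endothelia and wrap muscle and fat cells. The genes taken here are all 6 mouse genes for its α chains, Col4a1 to Col4a6, and their members were found by gene name among the array probes. They were measured by 9 of 55681 probes: 1 each for Col4a1, Col4a2, Col4a3 and Col4a5, 3 for Col4a4 and 2 for Col4a6. The family was chosen by measured values of these arrays, because Col4a1 was higher in both knockouts than in WT cells, so every difference between a knockout and WT is given for these 6 genes as a description, without a test. The direct comparison of the knockouts with each other was not used in that choice and was tested.

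RNA came from immortalized murine embryonic fibroblasts (MEF), fibroblasts grown from mouse embryos and adapted to indefinite culture. WT MEF are labelled with the strain background W4, TIA1 KO MEF with BALB/c and lack the RNA-binding protein TIA1, and TIAR KO MEF with C57BL/6 and lack its relative TIAR, which the gene Tial1 encodes. No other treatment is named. Each group had 2 arrays from replicates described as independent, 6 arrays in all, and p-values measure only the spread between such replicates. Each group has a strain of its own and the labels name no second line of any genotype, so the effects of genotype, of strain and of the particular line cannot be told apart.

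The α chains assemble into triple-helical protomers inside the endoplasmic reticulum, and only a few combinations form. The broadest is α1α1α2, from Col4a1 and Col4a2, which is found in nearly all basement membranes and is made by fibroblasts in culture. The α3α4α5 protomer is best known from the kidney glomerulus, and α5α5α6 from skin and smooth muscle basement membranes. The genes lie as 3 head-to-head pairs, Col4a1 with Col4a2, Col4a3 with Col4a4 and Col4a5 with Col4a6. Prolyl and lysyl hydroxylases, the chaperone HSP47 (Serpinh1) and the crosslinking enzyme peroxidasin (Pxdn) act on the chains before or after secretion.

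Values are normalized log2 intensities, so a step of 1 is a doubling, and differences and tests compare arrays at the same probe. The brightest probe of a marker list and the sum over its probes are given as signal, which depends on each probe's affinity and does not rank genes by their RNA. A probe is called well above background where the scanner software rated at least 50% of its spots so. Between 23531 and 26254 probes reached this on the WT and TIAR KO arrays, but 16000 and 19920 on the TIA1 KO arrays, whose median spot intensities of 458 and 218 were above those of the other 4 arrays (119 to 152). In these bulk samples, fewer cells of a type and less RNA per cell cannot be told apart.

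The knocked-out genes were read first. The Tial1 probe that was complete on all arrays had log2 values of 11.71 and 11.09 in WT, 11.85 and 11.49 in TIA1 KO, and 10.00 and 9.65 in TIAR KO MEF, a fall of 1.58 ± 0.26 (SE, 2 arrays per group) in TIAR KO against WT (adjusted p = 0.0254). The brighter Tial1 probe had lost 1 WT array to an outlier flag. It read 13.22 on the WT array left, 9.57 and 11.60 in TIAR KO, and its difference of -2.63 did not pass the test (adjusted p = 0.2). The first of 3 Tia1 probes read 9.56 and 9.90 in WT, 7.57 and 8.65 in TIA1 KO, and 9.98 and 8.63 in TIAR KO. Its difference of -1.62 ± 0.42 in TIA1 KO did not pass (adjusted p = 0.116), and the second Tia1 probe was at -1.47, with WT arrays of 10.72 and 8.54. The third, not well above background in WT or TIAR KO, ran the other way, with 7.88 and 8.54 in TIA1 KO against 7.44 and 7.25 in WT (0.87 ± 0.28, adjusted p = 0.149). Where these probes lie relative to the deleted parts was not analysed here.

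**Figure D1:**
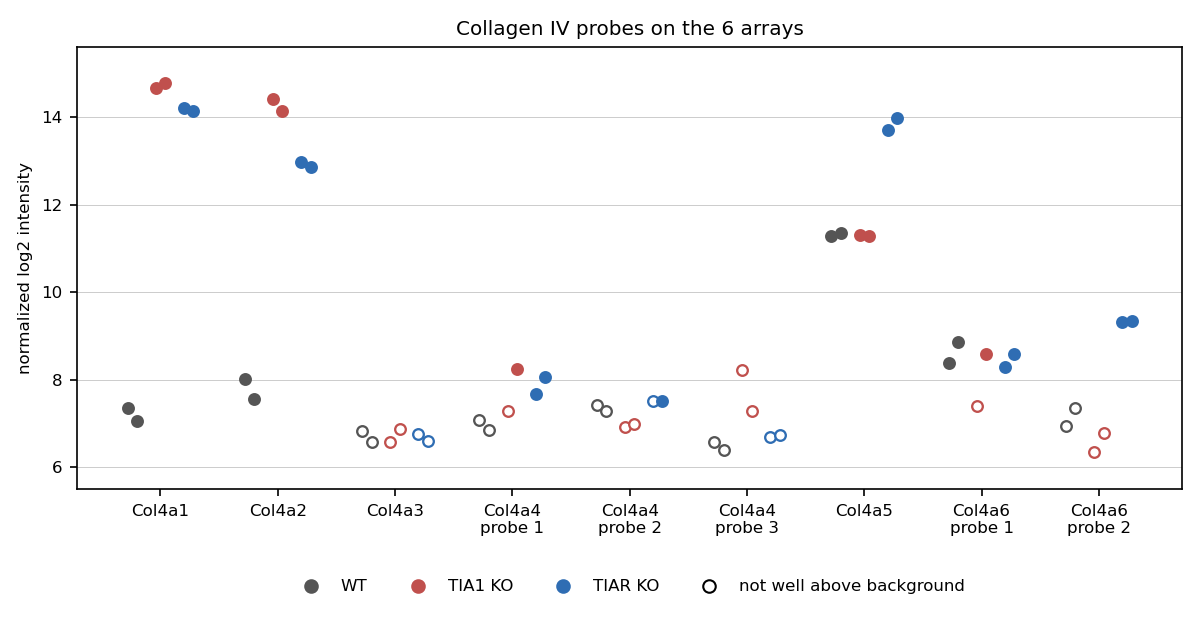
Normalized log2 intensity (vertical axis) of the 9 collagen IV probes on the 6 arrays, with 1 point per array, coloured by group, and open points where the probe was not well above background. Col4a1 and Col4a2 lie near 7 to 8 in WT and at 12.85 or above in both knockouts, while Col4a5 stands apart in TIAR KO alone.

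Col4a1 and Col4a2 code for the 2 chains of the α1α1α2 protomer and share a promoter region on chromosome 8. Because both were far higher in the knockouts, that region is shown. RefSeq places the 2 start sites 21 bases apart on opposite strands (GRCm38.p6), so that the windows from 250 bases before to 50 bases after each start share 78 bases, chr8:11312777-11312854. Each window is printed 5′ to 3′ on its own gene's strand, with CCAAT boxes (letters CCAAT) and GC boxes (letters GGGCGG), found on either strand, in capitals. The Col4a1 window is chr8:11312777-11313076 on the minus strand and the Col4a2 window chr8:11312555-11312854 on the plus strand.
Col4a1: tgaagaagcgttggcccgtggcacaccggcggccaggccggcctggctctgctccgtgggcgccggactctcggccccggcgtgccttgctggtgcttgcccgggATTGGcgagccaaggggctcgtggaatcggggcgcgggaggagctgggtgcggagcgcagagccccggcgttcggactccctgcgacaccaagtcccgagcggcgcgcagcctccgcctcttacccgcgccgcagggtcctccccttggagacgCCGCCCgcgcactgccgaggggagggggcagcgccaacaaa
Col4a2: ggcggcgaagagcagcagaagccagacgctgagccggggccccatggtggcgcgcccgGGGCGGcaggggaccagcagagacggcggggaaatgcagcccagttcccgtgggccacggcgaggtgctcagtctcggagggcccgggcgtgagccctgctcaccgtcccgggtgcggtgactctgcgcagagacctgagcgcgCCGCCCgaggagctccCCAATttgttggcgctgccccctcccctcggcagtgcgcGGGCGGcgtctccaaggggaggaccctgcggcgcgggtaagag

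The Col4a1 window held 1 CCAAT box and 1 GC box, and the Col4a2 window 1 CCAAT box and 3 GC boxes, none of them overlapping another motif. One GC box lies in the shared stretch and is therefore printed in both. Of 32851 such windows in the RefSeq table, 37.4% held a CCAAT box and 35.7% a GC box. Neither the TATA box letters TATAAA, present in 13.6% of windows, nor the letters CCCTNCCCC, present in 9.48%, occur in the windows of Col4a1 or Col4a2. Both windows are rich in G and C (74.0% and 73.7%, against a median of 52.7% over all windows). The start sites of Col4a5 and Col4a6, by comparison, lie 1343 bases apart and their windows share no base. These letter matches describe the sequence alone and show nothing about binding.

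Col4a1 was read by a 60-base probe at chromosome 8, 11199009 to 11199068 (mm9), assigned to NM_009931. The array carries it in 10 spots. Its log2 values were 7.35 and 7.06 on the WT arrays, against 14.66 and 14.78 with TIA1 knocked out and 14.20 and 14.14 with TIAR knocked out. All 4 knockout arrays lay far above both WT arrays, and the TIA1 KO arrays were above the TIAR KO arrays. The log2 difference from WT was 7.51 ± 0.18 (SE, 2 arrays per group) in TIA1 KO, a 182-fold higher intensity, and 6.97 ± 0.16 in TIAR KO, 125-fold.

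The spots show how these values arose before normalization. The median spot intensity of the Col4a1 probe was 204 and 180 on the WT arrays, over local backgrounds of 49.5 and 46.0. TIA1 KO arrays gave 26500 and 30400 and TIAR KO arrays 19300 and 15400, with local backgrounds of 43.0 to 120. In WT cells 9 and 10 of the 10 spots were well above background, so the RNA was measured there and not only bounded, although close to background. The SD over spots of 1 array was 0.139 and 0.143 in WT, 0.195 and 0.158 in TIA1 KO, and 0.283 and 0.230 in TIAR KO, a spread between spots and not between samples.

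**Figure D2:**
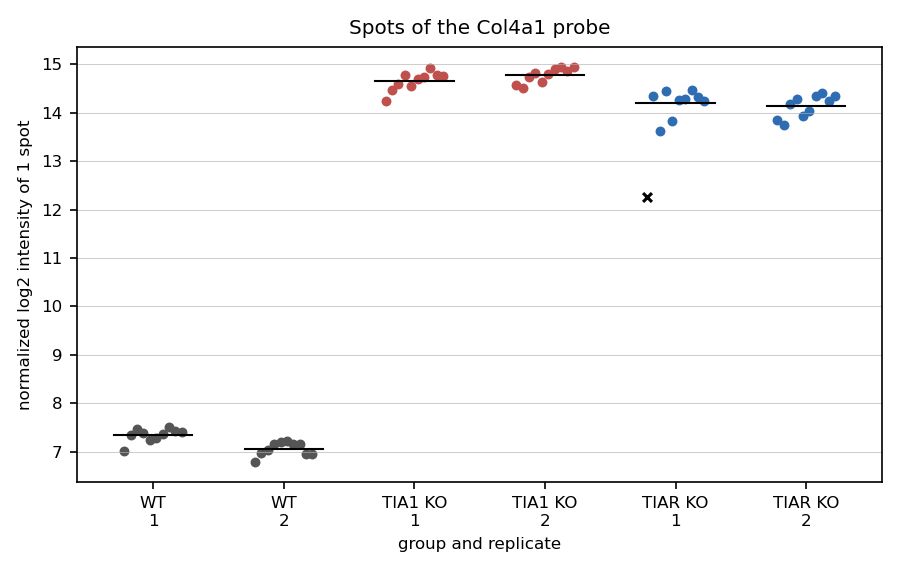
Normalized log2 intensity (vertical axis) of each of the 10 spots of the Col4a1 probe on each array (horizontal axis, group and replicate), with the mean of the spots kept as a line. A cross marks the 1 spot left out as an outlier, on TIAR KO replicate 1, and no knockout spot comes near the WT spots.

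Col4a2 was read at chromosome 8, 11448840 to 11448899 (mm9), by a probe for NM_009932 with 1 spot. Its log2 values were 8.02 and 7.57 in WT, 14.42 and 14.13 in TIA1 KO, and 12.97 and 12.85 in TIAR KO MEF. The 3 groups did not overlap, and the order was WT, TIAR KO, TIA1 KO, as for Col4a1. The log2 difference from WT was 6.48 ± 0.24 in TIA1 KO (89.6-fold) and 5.11 ± 0.20 in TIAR KO (34.6-fold). The unnormalized intensities were 304 and 226 in WT, 21800 and 18600 in TIA1 KO, and 7760 and 5920 in TIAR KO MEF.

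The α3 and α4 chains, partners in the glomerular network, were at or near background. Col4a3 (chromosome 1, 82717775 to 82717834, mm9) was not well above background on any array, with log2 values between 6.58 and 6.87 in all 3 groups. Its differences from WT were 0.02 ± 0.20 in TIA1 KO and -0.02 ± 0.16 in TIAR KO. At this signal the probe cannot show a level or its change.

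The 3 Col4a4 probes disagreed. The brightest (chromosome 1, 82515563 to 82515622, mm9) read 7.08 and 6.85 in WT, 7.29 and 8.25 in TIA1 KO, and 7.67 and 8.07 in TIAR KO. It was well above background on neither WT array, on 1 TIA1 KO array and on both TIAR KO arrays, so its ratio to WT is a bound in TIAR KO, at least 1.81-fold higher, and none is given in TIA1 KO. The probe at 82447879 to 82447938 differed from WT by -0.40 ± 0.15 in TIA1 KO and by 0.15 ± 0.14 in TIAR KO. The third, at 82449133 to 82449192, was not well above background anywhere and read 8.23 and 7.29 in TIA1 KO against 6.59 and 6.40 in WT. Its first TIA1 KO spot had an intensity of 1240 over a local background of 543, against local backgrounds of 43.0 to 99.0 on the other arrays. No change of Col4a4 can be read across its probes.

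Col4a5, the chain common to the α3α4α5 and α5α5α6 protomers, was well above background on every array. The probe (chromosome X, 138123547 to 138123606, mm9) read 11.29 and 11.35 in WT, 11.30 and 11.28 in TIA1 KO, and 13.71 and 13.99 in TIAR KO MEF. WT and TIA1 KO arrays overlapped, and both TIAR KO arrays stood above them. The log2 difference from WT was -0.03 ± 0.15 in TIA1 KO and 2.53 ± 0.16 in TIAR KO, 5.78-fold. Scaling all arrays to a common median put the TIA1 KO difference at -1.59, with the median of all probes at -0.67.

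Col4a6, its head-to-head neighbour, gave a split reading. The brighter probe (chromosome X, 137601433 to 137601491, mm9) read 8.39 and 8.86 in WT, 7.40 and 8.60 in TIA1 KO, and 8.29 and 8.58 in TIAR KO, with overlapping groups, and was well above background on 1 of the TIA1 KO arrays. The second (137599990 to 137600049) read 6.95 and 7.35 in WT, 6.35 and 6.78 in TIA1 KO, and 9.32 and 9.34 in TIAR KO, and was well above background on the TIAR KO arrays only. By this probe Col4a6 was at least 4.17-fold higher in TIAR KO than in WT. Both probes carry the accession NM_053185, so the level of Col4a6 in TIAR KO MEF is uncertain.

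As a description beside the background, and not as a test of the family, 2 of the 6 genes, read by the brightest probe of each, lay past the call rule used for all probes as higher in TIA1 KO (Col4a1, Col4a2) and 3 in TIAR KO (Col4a1, Col4a2, Col4a5), and none as lower. That rule asks for a fold above 2 with an adjusted p (Benjamini-Hochberg) under 0.05. It called 3.54% of all probes in TIA1 KO against WT and 5.76% in TIAR KO against WT, with 2.18% and 3.39% higher and 1.36% and 2.37% lower. These counts rest on the contrasts that chose the family and carry no weight of their own. The median difference over the 6 genes was 0.41 in TIA1 KO and 1.72 in TIAR KO, beside -0.09 and -0.02 over all probes. These medians rest on Col4a4, whose probes disagreed, and in TIA1 KO also on Col4a3, which was not well above background. They therefore show no change of the family as a whole.

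How far the 2 knockout lines differ from each other in these chains was tested directly, on the same 4 knockout arrays, with 3.35% of all probes called. Col4a5 was higher in TIAR KO than in TIA1 KO by 2.56 ± 0.18 (5.89-fold, adjusted p = 0.0125), with both TIAR KO arrays above both TIA1 KO arrays. The second Col4a6 probe was higher by 2.76 ± 0.21 (at least 3.8-fold, adjusted p = 0.0149), while the brighter Col4a6 probe differed by 0.44 ± 0.45 (adjusted p = 0.573). Col4a2 was lower in TIAR KO by 1.37 on the log2 scale, -1.37 ± 0.18 (2.59-fold, adjusted p = 0.0446). Col4a1 had the same direction, -0.54 ± 0.16, and did not pass (adjusted p = 0.159). Col4a3 and the 3 Col4a4 probes did not pass either, with adjusted p between 0.147 and 0.903.

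The Col4a2 call was lost under 5 other ways of scaling the values, with differences of -0.32 to -1.61 and adjusted p between 0.0612 and 0.629, and without either TIAR KO array no probe on the whole array passed. Col4a5 and the second Col4a6 probe kept the size of their differences with the processed signal (2.60 and 2.49) and did not pass there (adjusted p = 0.059 and 0.0822). With a common median these 2 differences were larger, 3.7 and 3.1. With a replicate block they were unchanged in size and did not pass (adjusted p = 0.0758 and 0.0756). Without TIAR KO replicate 1 and 2 in turn, Col4a5 still differed by 2.70 and 2.42 (adjusted p = 0.249 and 0.228), Col4a2 by -1.43 and -1.31 and the second Col4a6 probe by 2.78 and 2.75. Without TIA1 KO replicate 2, 2 more probes passed, the brighter Col4a6 probe (1.04, adjusted p = 0.0326) and the Col4a4 probe at 82449133 to 82449192 (-1.52, adjusted p = 0.00971), which was not well above background on any array.

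**Figure D3:**
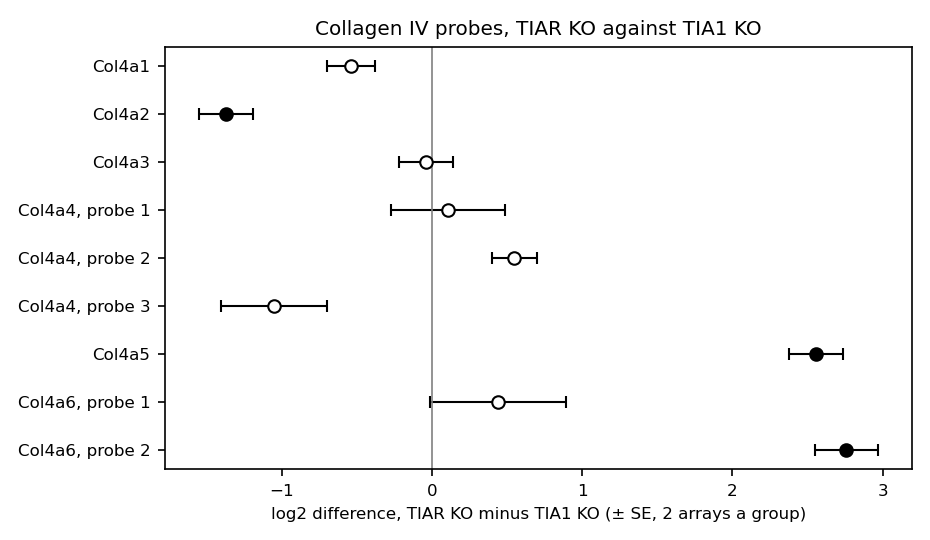
Log2 difference between TIAR KO and TIA1 KO MEF (horizontal axis) for the 9 collagen IV probes, with bars of 1 SE from 2 arrays per group and filled points where the adjusted p was under 0.05 and the fold above 2. Col4a5 and the second Col4a6 probe lie to the right at 2.56 and 2.76, and Col4a2 to the left at -1.37.

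Genes whose products fold, crosslink, accompany, bind or cut collagen IV were read from 4 lists of 83 genes in all, which were drawn up with earlier results of these data known. In TIA1 KO MEF 17 of them rose and 5 fell (26.5%, against 3.54% of all probes), and in TIAR KO MEF 32 rose and 2 fell (41%, against 5.76%). Between the knockouts 10 were higher in TIAR KO and 8 were lower (21.7%, against 3.35%), and 5 were called with the processed signal. The shares set side by side here, and for the lists and markers below, rest on unlike sets. A listed gene was read from its brightest probe, while the shares of all probes also count the many with signal near background. The gap between such shares is therefore a description and does not measure an enrichment of the listed genes. With arrays scaled to a common median the listed genes split otherwise, 11 higher and 20 lower in TIA1 KO, 24 higher and 6 lower in TIAR KO, and 24 higher and 2 lower between the knockouts. In TIA1 KO the count depended on the WT arrays and on the scaling. Without WT replicate 1 or without WT replicate 2 no listed gene, and no probe of the array, passed, and none passed with the scanner software's processed signal. With a common median, the TIA1 KO rises of Loxl2, P3h3, P3h4, Nid1 and Mmp14 given below shrank to 0.28, 0.32, 0.13, 0.02 and 0.39 and did not pass. With a replicate block the same rises kept their size and did not pass either (adjusted p between 0.056 and 0.0679). In the authors' log2 table the TIA1 KO rise of Loxl2 was 1.79 and did not pass (adjusted p = 0.0524).

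Among 23 genes of collagen folding and crosslinking, 6 rose and none fell in TIA1 KO, and 9 rose and 1 fell in TIAR KO. Over all probes, 3.54% and 5.76% were called. The median differences were 0.46 and 0.44, beside -0.09 and -0.02 over all probes. Since the split of the listed genes changed with a common median, the directions within this and the next 3 lists depend on the scaling. Loxl2, a lysyl oxidase that crosslinks collagen IV, rose in both, from 11.01 and 11.27 in WT to 12.84 and 13.17 in TIA1 KO (1.86 ± 0.20, adjusted p = 0.0304) and 14.43 and 14.79 in TIAR KO (3.47 ± 0.19, adjusted p = 0.000817). Its difference between the knockouts, 1.61 ± 0.22 (adjusted p = 0.0475), passed as reported but not with offset 16, without loess, in the authors' log2 table, with the processed signal or with a replicate block (adjusted p between 0.0582 and 0.109). P3h4, of the collagen hydroxylation complex, rose by 1.72 ± 0.16 and 2.12 ± 0.14 (adjusted p = 0.0214 and 0.00129). P3h3, a relative of the prolyl 3-hydroxylases, rose in TIA1 KO by 1.84 ± 0.15 (adjusted p = 0.0162) and read 11.34 and 11.33 in TIAR KO beside 11.31 and 11.33 in WT.

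P4ha3, a catalytic subunit of prolyl 4-hydroxylase, rose in TIAR KO by 1.98 ± 0.29 (adjusted p = 0.0171) and was not well above background in TIA1 KO. Plod2, a lysyl hydroxylase, fell by 1.25 in TIAR KO (adjusted p = 0.00884). P4hb, the shared β subunit of prolyl 4-hydroxylase, rose by 1.00 ± 0.14 in TIAR KO (adjusted p = 0.0147) and differed by 1.08 ± 0.16 in TIA1 KO (adjusted p = 0.0505). Pxdn, which forms the sulfilimine crosslink of collagen IV, rose by 1.22 ± 0.17 in TIAR KO (adjusted p = 0.0148) and differed by 1.02 ± 0.17 in TIA1 KO (adjusted p = 0.0679). Serpinh1 differed by 1.01 ± 0.16 and 0.97 ± 0.22 and Plod3, a lysyl hydroxylase and glucosyltransferase, by 0.77 ± 0.17 and 0.63 ± 0.20, and neither passed in either line (adjusted p between 0.061 and 0.156). Among probes well above background alone, the TIA1 KO differences of Serpinh1, P4hb and Pxdn passed (adjusted p = 0.0397, 0.0326 and 0.0421), as they did with all 3 groups in 1 fit (0.0462, 0.0138 and 0.0292). The TIA1 KO differences of P4hb, Pxdn, Serpinh1 and Plod3 turned negative when arrays were scaled to a common median. That scaling also ended the TIAR KO calls of Pxdn (0.75, adjusted p = 0.0858) and P4hb (0.52, adjusted p = 0.0908), and the processed signal those of Pxdn, P4hb and Plod2 (adjusted p = 0.107, 0.318 and 0.0504).

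Of 27 other basement membrane proteins, 4 rose and 4 fell in TIA1 KO, and 10 rose and none fell in TIAR KO. The shares over all probes were 3.54% and 5.76%. The medians were 0.34 and 0.42, beside -0.09 and -0.02 over all probes. Smoc2, a secreted calcium-binding matrix protein, went from 6.60 and 6.59 in WT to 14.11 and 14.49 in TIA1 KO and 11.05 and 11.27 in TIAR KO. It was well above background on 1 of the 2 WT arrays, so WT was near the lowest measurable signal. Its rises were 7.71 ± 0.20 and 4.57 ± 0.15 (adjusted p = 0.00362 and 0.000254). The difference between the knockouts of -3.14 ± 0.21 passed (adjusted p = 0.012), but not with a replicate block (adjusted p = 0.0654). The nidogens, which link collagen IV to laminin, rose in both lines. Nid1 rose by 1.63 ± 0.17 with TIA1 KO (adjusted p = 0.0276) and by 3.06 ± 0.17 with TIAR KO (adjusted p = 0.000832). Nid2 rose by 3.11 ± 0.18 (adjusted p = 0.00807) and 3.03 ± 0.16 (adjusted p = 0.000707).

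The laminin chains, which form the other basement membrane network, did not move as 1 group. Lama2 rose only in the TIA1 KO comparison, from 7.72 and 7.74 in WT to 11.06 and 11.33 (3.46 ± 0.17, adjusted p = 0.00636). It read 7.65 and 7.74 in TIAR KO, a tested difference between the knockouts of -3.50 ± 0.18 (adjusted p = 0.0083). With a replicate block that difference did not pass (adjusted p = 0.0639). Lamb3, of the epidermal laminin, read 10.13 and 10.16 in WT and was not well above background in TIA1 KO, at least 6.04-fold lower (adjusted p = 0.00677). Lamb1 differed from WT by 0.42 ± 0.15 and -0.14 ± 0.15 (adjusted p = 0.173 and 0.71), the first turning negative under common median scaling. Lamc1 rose by 1.41 ± 0.16 in TIAR KO (adjusted p = 0.00821) and differed by 0.83 ± 0.25 in TIA1 KO (adjusted p = 0.14). The TIAR KO rise of Lamc1 was 0.94 with a common median, under 2-fold, and 0.99 with the processed signal (adjusted p = 0.188), and passed in neither.

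Hspg2, which encodes the proteoglycan perlecan, differed by 0.36 ± 0.26 and 0.27 ± 0.23 (adjusted p = 0.393 and 0.61). Both of its differences turned negative under common median scaling, where that in TIA1 KO was called as lower (-1.21, adjusted p = 0.0438). Col18a1, the endostatin precursor collagen, fell by 3.83 in TIA1 KO (adjusted p = 0.0155), to 8.33 and 8.86 from 12.15 and 12.70, and was well above background on 1 TIA1 KO array. Tinagl1, a matrix protein that binds integrins, fell by 4.50 in TIA1 KO (adjusted p = 0.00386), where 1 array was well above background, and its TIAR KO arrays, at 13.47 and 10.17, were far apart. Col7a1, the anchoring fibril collagen, fell by 2.53 in TIA1 KO (adjusted p = 0.0122). In TIAR KO it differed from WT by 0.9 ± 0.17, under 2-fold (adjusted p = 0.0376). It was higher in TIAR KO than in TIA1 KO by 3.44 ± 0.18 (adjusted p = 0.00836), which did not pass with a replicate block (adjusted p = 0.0639).

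**Figure D4:**
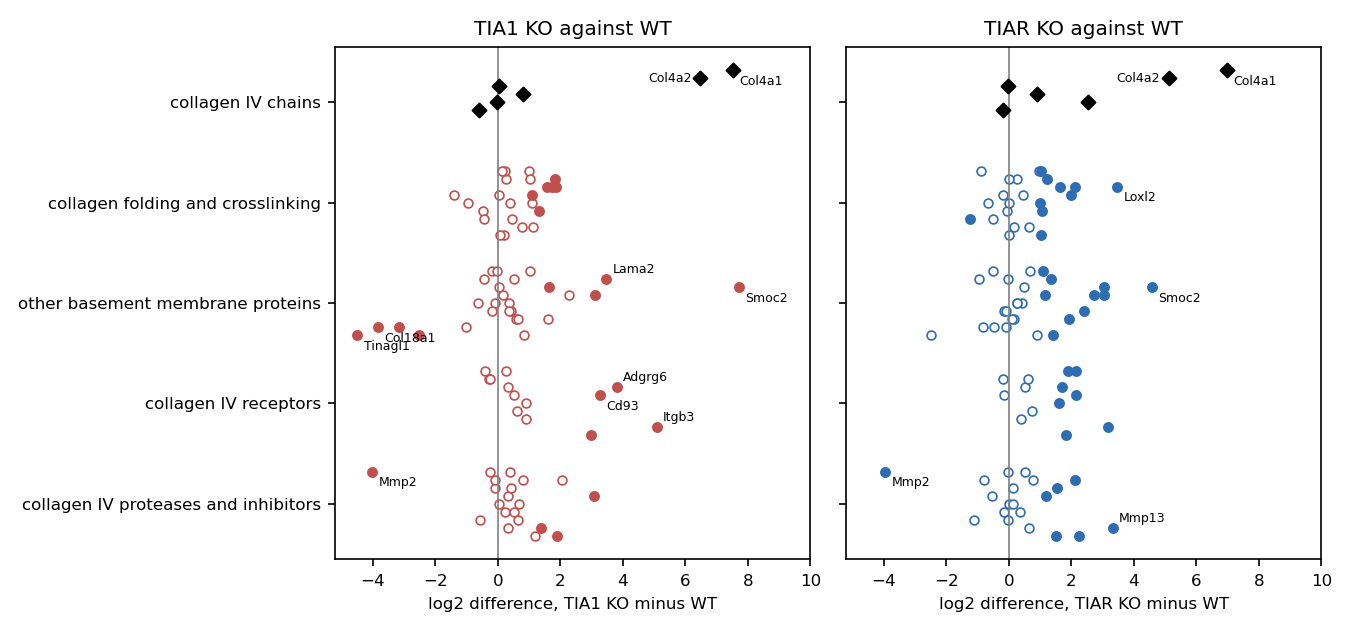
Log2 difference from WT (horizontal axis) in TIA1 KO (left) and TIAR KO (right) MEF for the collagen IV chains (black diamonds, untested) and the genes of 4 lists (1 point per gene, filled where the adjusted p was under 0.05 and the fold above 2). Col4a1, Col4a2 and Smoc2 lie farthest to the right in both panels, and Mmp2 lies near -4 in both.

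Collagen IV receptors, 13 genes, had 4 rises and no fall in TIA1 KO and 7 rises and no fall in TIAR KO. Called over all probes were 3.54% and 5.76%. The medians were 0.6 and 1.62, beside -0.09 and -0.02 over all probes. Itgb3, an integrin subunit that pairs with αv, read 8.17 and 8.01 in WT, 13.05 and 13.29 in TIA1 KO, and 11.44 and 11.05 in TIAR KO. It rose by 5.08 ± 0.18 (adjusted p = 0.00392) and 3.16 ± 0.19 (adjusted p = 0.00102). Adgrg6, an adhesion receptor that binds collagen IV, rose by 3.81 ± 0.15 in TIA1 KO (adjusted p = 0.00467) and by 1.7 ± 0.15 in TIAR KO (adjusted p = 0.00354). It was lower in TIAR KO than in TIA1 KO by 2.12 on the log2 scale, -2.12 ± 0.16 (adjusted p = 0.0157). That difference did not pass with a common median (-1.13, adjusted p = 0.0959), with the processed signal (adjusted p = 0.0692) or with a replicate block (adjusted p = 0.0856). Cd93, a transmembrane receptor, rose by 3.26 ± 0.15 and 2.14 ± 0.14 (adjusted p = 0.00576 and 0.00141).

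The α1 integrin subunit Itga1, whose heterodimer with β1 favours collagen IV, rose in TIAR KO alone among the 2 comparisons, by 2.15 ± 0.20 (adjusted p = 0.00379), and was not well above background in TIA1 KO. It was well above background on 1 WT array. Between the knockouts it was at least 3.79-fold higher in TIAR KO (adjusted p = 0.0316). The receptor tyrosine kinase Ddr1 rose by 1.90 ± 0.17 in TIAR KO (adjusted p = 0.00359) and was higher there than in TIA1 KO by 1.65 ± 0.18 (adjusted p = 0.0333). With a common median it was called as lower in TIA1 KO than in WT (-1.22, adjusted p = 0.0427). Between the knockouts, the calls of Itga1 and Ddr1 were lost with the processed signal (adjusted p = 0.0695 for each). With a replicate block they were also lost (adjusted p = 0.126 and 0.125). Itgb1 differed by 0.90 ± 0.19 and 0.40 ± 0.18 (adjusted p = 0.0913 and 0.299), and both turned negative under common median scaling. Itga2 was not well above background on any array. Ddr2 had lost 1 WT and 1 TIAR KO array to outlier flags, and on the arrays left its differences of -0.24 and 0.62 did not pass (adjusted p = 0.605 and 0.322), although with a common median that in TIA1 KO was called as lower (-1.73, adjusted p = 0.0157).

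Among 20 proteases and inhibitors, 3 rose and 1 fell in TIA1 KO, and 6 rose and 1 fell in TIAR KO. The all-probe shares called were 3.54% and 5.76%. The medians were 0.4 and 0.24, beside -0.09 and -0.02 over all probes. Mmp2, a gelatinase that cleaves collagen IV, was the gene that fell in each. It read 11.82 and 11.99 in WT and 7.86 and 8.05 in TIAR KO, and fell by 3.95 there (adjusted p = 0.000367), and was not well above background in TIA1 KO, at least 13.8-fold lower (adjusted p = 0.0119). Mmp9, the other gelatinase, was not well above background on any array. Mmp14, the membrane protease that activates the Mmp2 proenzyme, rose by 1.89 ± 0.16 and 2.24 ± 0.15 (adjusted p = 0.019 and 0.00136).

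Plau, the urokinase plasminogen activator, rose by 3.09 ± 0.18 in TIA1 KO (adjusted p = 0.0084) and by 1.18 ± 0.14 in TIAR KO (adjusted p = 0.00902). It was lower in TIAR KO than in TIA1 KO by 1.91, -1.91 ± 0.18 (adjusted p = 0.023). That difference did not pass with a common median (-1.06, adjusted p = 0.122), with the processed signal (-2.35, adjusted p = 0.0695) or with a replicate block (adjusted p = 0.103). The collagenase Mmp13 was well above background on the TIAR KO arrays only, at least 9.75-fold higher than in WT (adjusted p = 0.000786). Mmp3 was at least 3.35-fold higher in TIAR KO than in WT (adjusted p = 0.00239). It was also well above background on 1 TIA1 KO array, with a measured difference from WT of 2.06 that did not pass (adjusted p = 0.0811). The matrix-bound inhibitor Timp3 rose by 1.51 ± 0.21 in TIAR KO (adjusted p = 0.0141) and differed by 1.20 ± 0.22 in TIA1 KO (adjusted p = 0.0789, but 0.0461 among probes well above background and 0.0262 in the joint fit of 3 groups). Timp2 rose in TIA1 KO by 1.37 ± 0.17 (adjusted p = 0.0402), a call that was lost with offset 16, without loess, in the authors' log2 table and with a replicate block (adjusted p between 0.0508 and 0.0978). The TIA1 KO differences of Timp2 and Timp3 turned negative under common median scaling, and the TIAR KO rise of Timp3 did not pass there (1.04, adjusted p = 0.0606) or with the processed signal (1.43, adjusted p = 0.0846).

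The genes next to the 3 pairs on the array's mm9 map were also read. Irs2, an insulin receptor substrate 194460 bases below the Col4a1 probe, read 12.67 and 12.71 in WT, 14.06 and 13.97 in TIA1 KO, and 13.59 and 13.27 in TIAR KO. It rose in TIA1 KO by 1.32 ± 0.15 (adjusted p = 0.0327) and differed by 0.74 ± 0.17 in TIAR KO (adjusted p = 0.0682). Rab20, a small GTPase 5284 bases above the Col4a2 probe, fell by 1.22 in TIAR KO (adjusted p = 0.0146) and differed by -0.43 ± 0.28 in TIA1 KO (adjusted p = 0.361). The neighbours of the other pairs, Rhbdd1 and Mff on chromosome 1 and Atg4a and Irs4 on chromosome X, were called in no comparison, and Atg4a was not well above background on any array.

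Of 12619 genes, the 5 whose deviations from their own mean over the 6 arrays lay closest to those of Col4a1 were Arhgdib, Cers4, Col3a1, Col4a2 and Tmem119, with root mean square differences of 0.55, 0.62, 0.67, 0.77 and 0.78 on the log2 scale. Col4a2, the chain that pairs with it, was thus the fourth. Arhgdib read 8.32 and 8.51 in WT, 14.60 and 14.72 in TIA1 KO, and 15.00 and 15.04 in TIAR KO. Col3a1, a fibrillar collagen gene, read 9.52 and 9.08 in WT, 15.59 and 15.65 in TIA1 KO, and 15.16 and 16.65 in TIAR KO. Col4a4, Col4a5 and Col4a6 ranked 1307, 1646 and 4003. The points are 6 arrays in 3 groups, so the likeness reflects in the main the group means. Those means hold the rise of Col4a1 over WT by which the family was chosen, so the rank of Col4a2 is a description only.

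The fibroblast label was set against 10 marker genes. Vimentin (Vim), Col1a1 and Col1a2 were well above background on every array, and Lum and Fap on none. Pdgfra was not well above background in WT, and Dcn and Thy1 were so on 1 WT array each. Of the 10, 6 rose in TIA1 KO and 7 in TIAR KO, and none fell. Among all probes, 2.18% and 3.39% were called as higher. With the processed signal no probe was called in TIA1 KO. Pdgfra rose at least 9.52-fold and 26.1-fold (adjusted p = 0.00521 and 0.000189), and Thy1 rose by 7.98 ± 0.18 in TIAR KO (adjusted p = 0.000176). The summed level of the 10 markers, on the linear intensity scale, was 281000 and 268000 in WT, with Vim the brightest probe, 835000 and 775000 in TIA1 KO, and 913000 and 906000 in TIAR KO, with Col1a2 the brightest in both. Vim, at 0.44 and 0.49 from WT, Lum and Fap passed in neither line, and Thy1 differed by 0.49 in TIA1 KO (adjusted p = 0.244). The part of the markers that rose in the Col4a1 and Col4a2 differences was not tested.

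Some genes listed here as markers of other cells that make collagen IV moved too. Whether such cells were present was not tested. Of 8 smooth muscle and pericyte markers, 3 rose in TIA1 KO, and 4 rose and 1 (Cspg4) fell in TIAR KO. The shares of all probes called were 3.54% and 5.76%. Their summed level was 17300 and 22100 in WT, with Tagln the brightest probe, 275000 and 304000 in TIA1 KO, and 477000 and 423000 in TIAR KO, with Acta2 the brightest. Acta2, smooth muscle actin, rose by 4.85 ± 0.20 and 5.54 ± 0.18 (adjusted p = 0.00492 and 0.000254), while the smooth muscle myosin Myh11, Rgs5 and Myocd were not well above background on any array.

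Parietal endoderm, an extraembryonic cell type, is known for heavy synthesis of collagen IV. Of 8 extraembryonic endoderm markers 2 rose in TIA1 KO (Gata4, Gata6) and 4 in TIAR KO (Gata4, Gata6, Foxa2, Afp). Beside them, 2.18% and 3.39% of all probes were called as higher. Gata6 was the brightest probe of the list in the knockouts and rose by 3.07 ± 0.19 and 5.28 ± 0.14 (adjusted p = 0.00891 and 0.000186). The summed level was 1130 and 1040 in WT, with Amn the brightest, 4330 and 4220 in TIA1 KO, and 14600 and 14700 in TIAR KO. Sox7 and Ttr were not well above background on any array, nor was Sox17 on 5 of the 6.

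By limma, none of 8 endothelial markers was called in any comparison. At an unadjusted p under 0.05 were 1 of them in TIA1 KO, 2 in TIAR KO and 0 between the knockouts. In the same order, 3.54%, 5.76% and 3.35% of all probes were called. At such shares, 0 or 1 call in a list of 6 or 8 genes says little about the list. Cdh5, Tie1, Emcn and Cldn5 were not well above background on any array. Kdr was the brightest probe, and the summed level was between 3400 and 4250 on all arrays. Of 8 epithelial markers, 1 rose in TIA1 KO (Krt8) and 3 in TIAR KO (Cdh1, Krt8, Krt18), with sums of 1480 on both WT arrays, 1540 and 1920 in TIA1 KO, and 2910 on both TIAR KO arrays. Krt8 was the brightest probe in WT and TIA1 KO and Krt18 in TIAR KO. Of 6 macrophage markers Itgam, the brightest probe, rose in TIA1 KO and none rose in TIAR KO, with sums of 6730 and 4850 in WT, 15300 and 12700 in TIA1 KO, and 8000 and 7800 in TIAR KO. Ptprc, Adgre1 and Lyz2 were not well above background on any array. The part of the smooth muscle, endoderm, epithelial and macrophage markers in the collagen IV differences was not tested.

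How much the collagen IV values depend on the scaling of the arrays is shown for the 3 genes with a difference. Over the values as reported and 5 other ways of scaling, the Col4a1 difference from WT ran from 6.16 to 8.75 in TIA1 KO and from 6.42 to 8.07 in TIAR KO. Col4a2 ran from 5.19 to 7.45 and from 4.73 to 5.84, and Col4a5 in TIAR KO from 2.11 to 2.55. The order of the knockouts for Col4a1 turned with common median scaling, where TIAR KO lay 0.52 above TIA1 KO (adjusted p = 0.412). Dim probes also moved with the processed signal, where the median of all probes in TIA1 KO was 1.98. There the TIA1 KO difference was 3.01 for Col4a3 and 3.67 for the brightest Col4a4 probe, and it turned from -0.40 to 1.23 for the Col4a4 probe at 82447879 and from -0.59 to 2.55 for the second Col4a6 probe. The TIAR KO difference of the brighter Col4a6 probe turned from -0.19 to 0.30, and with a common median that of Col4a3 in TIA1 KO turned from 0.02 to -0.50. None of these readings was tested.

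**Figure D5:**
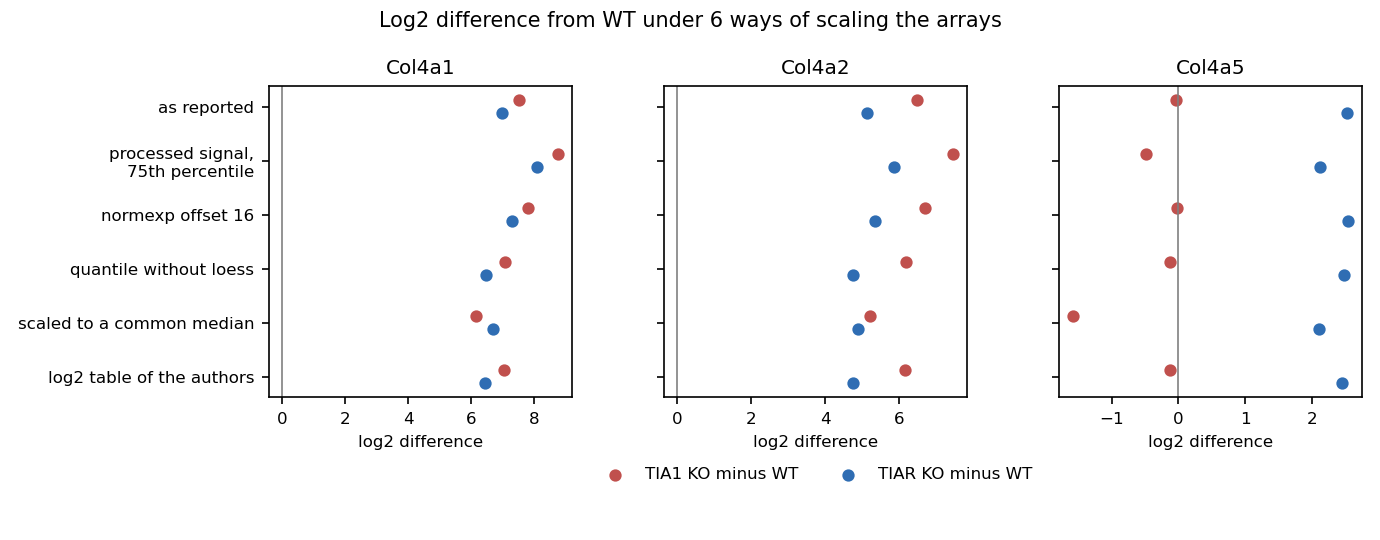
Log2 difference from WT (horizontal axes) of Col4a1, Col4a2 and Col4a5 in TIA1 KO and TIAR KO MEF under the reported processing and 5 others (rows), with 1 point per comparison. Col4a1 and Col4a2 stay above 4.7 in every row, and Col4a5 lies at 2.11 or above in TIAR KO and at or below 0 in TIA1 KO.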

How the data were processed

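RNA of 6 MEF samples, 2 each of WT, TIA1 KO and TIAR KO, was measured on 1-colour mouse arrays scanned with Feature Extraction 10.7.3.1. The authors deposited each spot's linear intensity and local background with quality flags, not normalized between arrays, and a table of log2 values normalized by loess and quantiles, used here as an alternative. Probe positions are on mm9, per the file headers.

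The mean intensity and local median background were corrected by normexp (offset 50), converted to log2, put through 1 loess pass against the mean array, and quantile normalized. Control spots and flagged outliers were left out, and spots of a probe were averaged. Each comparison was fitted with limma 3.58.1 (R 4.3.3, lmFit and eBayes) on its own 4 arrays over all 55681 probes, with no covariate. Every adjusted p is from such a moderated test with Benjamini-Hochberg adjustment. The adjustment was over all probes, except where only probes well above background were kept. The alternatives named below changed the values, the arrays or the covariates of the fit. Calls needed an adjusted p under 0.05 and a fold above 2. The fit was tested on simulated data, and the outcome is not given here. Genes with more than 1 probe were read from the probe with the highest mean. Where the dimmer group was not well above background on both arrays, a fold is a lower bound against the lowest well-measured log2 value of each array, or the probe's own if higher.

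The collagen IV genes, the gene lists and the markers were chosen with earlier results of these data known. Named from the lists were 17 fixed genes and up to 3 of the largest called rises and falls per list and comparison. Genes named beyond them, among the markers, were chosen after their values were seen. Names in the files were updated through RefSeq accessions (GRCm38.p6), which also gave the promoter windows. All 137 listed symbols were found. Alternatives were the software's processed signal at its 75th percentile, an offset of 16, quantiles without loess, a common median, only probes well above background, the authors' log2 table, all 3 groups in 1 fit, a replicate block and leaving out each array, where a lone array was assumed to vary like the other group. All arrays lay on 1 slide, with the TIA1 KO arrays in another row of it, so slide row and TIA1 genotype cannot be told apart. The number of arrays limits the precision. Protein sequences and exon positions of the probes were not used here.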

Additional observations from a re-analysis of the deposited data

Results flagged for a closer look

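Of 9 collagen IV probes, 3 differed between the 2 knockouts by the direct limma fit, where 3.35% of all probes were called. Their WT differences were accordingly unequal. Col4a2 was lower in TIAR KO than in TIA1 KO MEF (log2 difference -1.37, adjusted p = 0.0446), on top of higher values than WT in both lines. Col4a5 was higher in TIAR KO (2.56, adjusted p = 0.0125), where TIA1 KO lay within 0.03 of WT. The second Col4a6 probe was at least 3.8-fold higher in TIAR KO (measured difference 2.76, adjusted p = 0.0149, with neither TIA1 KO array well above background), and the brighter probe of the same gene did not pass (0.44, adjusted p = 0.573) except without TIA1 KO replicate 2 (1.04, adjusted p = 0.0326). None of the 3 passed with the processed signal, at adjusted p = 0.0695 (Col4a2), 0.059 (Col4a5) and 0.0822 (second Col4a6 probe). With a replicate block the values were 0.134, 0.0758 and 0.0756 in the same order. The Col4a2 call was lost under all 5 other ways of scaling (adjusted p between 0.0612 and 0.629). The causes of the 3 differences were not tested.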

How the results depend on the processing

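Col4a1 stayed above WT in both knockouts under all alternatives run. Its TIA1 KO difference was 8.75 with the processed signal, 7.81 with offset 16, 7.07 without loess, 6.16 with a common median and 7.04 in the authors' log2 table. Its TIAR KO difference was 8.07, 7.30, 6.45, 6.68 and 6.42 in the same order. The numbers of called probes moved more. Against WT, TIA1 KO had 1969 calls, but 0 with the processed signal (27765 at an unadjusted p under 0.05, median of all probes 1.98), 15801 with a common median (median -0.67), 1309 in the authors' table, 3986 with all 3 groups in 1 fit and 0 to 10735 with 1 array left out (0 without either WT array, with 7202 and 7415 at an unadjusted p under 0.05). Of listed genes, 22 were called in TIA1 KO, 0 with the processed signal and 0 to 33 with 1 array left out. The share of higher calls in TIA1 KO, 61.6%, became 11.9% with a common median, 44.7% among probes well above background and 47.2% in the joint fit, and in TIAR KO it went from 58.8% to 34.4% with a common median. Between the knockouts 1866 probes were called, 8307 with a common median (87.2% higher in TIAR KO, against 51.3%), 8.28% higher with the processed signal, 61.8% among the 2910 called of probes well above background, 3183 in the joint fit, and 0 to 10086 with 1 array left out (0 without either TIAR KO array, with 6318 and 6402 at an unadjusted p under 0.05). Listed genes called there, 18, were 5 with the processed signal and 0 to 31 with 1 array left out. The cause of these shifts was not tested.

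Same-numbered arrays showed no large shared deviation over all probes. Their deviations correlated at 0.0781 (WT and TIA1 KO), 0.0303 (WT and TIAR KO) and -0.0723 (the knockouts). Whether same-numbered samples were handled together cannot be read from these values. With a replicate block, calls were 671, 3308 and 0 and listed genes called 13, 33 and 0, in TIA1 KO, in TIAR KO and between the knockouts (10684 at an unadjusted p under 0.05). The block left the Col4a1 differences at 7.51, 6.97 and -0.54, and put Col4a2, Col4a5 and the second Col4a6 probe between the knockouts at adjusted p = 0.134, 0.0758 and 0.0756.

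Of the tested differences whose sign turned, that of Timp2 was called as reported, and those of Hspg2 and Ddr1 in TIA1 KO were called as lower with a common median (adjusted p = 0.0438 and 0.0427). With a common median the TIA1 KO difference became -0.54 for Serpinh1, -0.49 for P4hb, -0.81 for Plod3, -0.56 for Pxdn, -1.15 for Lamb1, -0.77 for Lamc1, -1.21 for Hspg2, -0.68 for Itgb1, -1.22 for Ddr1, -0.13 for Mmp9, -0.17 for Timp2 and -0.41 for Timp3. The TIAR KO difference became -0.19 for Hspg2, -0.06 for Itgb1 and 0.01 for Mmp9, and that between the knockouts 0.52 for Col4a1, 0.58 for Col4a3 and -0.02 for Col4a4. With the processed signal, TIA1 KO became 0.61 for Itga1, 3.02 for Itga2 and 0.03 for Ddr2, TIAR KO 0.32 for Itga2 and 0.18 for Mmp9, and the knockouts differed by -1.08 and -0.26 at 2 Col4a4 probes. Without loess Col4a4 differed between the knockouts by -0.04, and in the authors' table Col4a3 by 0.06. With 1 array left out, Mmp9 ran from 0 to 0.09 in TIA1 KO and reached 0.04 in TIAR KO, and between the knockouts Col4a3 reached 0.03 and 0.1, Col4a4 ran from -0.37 to 0.59 and Col4a6 from -0.16 to 1.04.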
